A study of Saccharomyces cerevisiae with 30 samples.

Results

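The 9 genes described here are the phosphate genes PHO5, PHO3, PHO84, PHO89, PHO11 and PHO12 and the inositol and phospholipid genes INO1, OPI3 and CHO2 of budding yeast (Saccharomyces cerevisiae). They were taken from a list of names, not from measured values, out of 6002 nuclear protein-coding genes, and each was described with its reading frame and the 500 bp upstream of it. The name of the set calls them regulated by INO80. No measure of transcription was analysed here, so that regulation was not examined, and the values concern where proteins and DNA breaks were mapped.

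INO80 is a chromatin remodelling complex that slides nucleosomes and takes its name from a yeast mutant that needs inositol. Arp5 is an actin-related subunit on which its remodelling depends. When phosphate is scarce, the activators Pho4 and Pho2 switch on PHO5 and the phosphate transporters, and nucleosomes over the PHO5 promoter are removed. When inositol is scarce, Ino2 and Ino4 activate INO1, CHO2 and OPI3, and the repressor Opi1 shuts them off when inositol returns.

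Cells grew in YPD, a rich medium, and every list analysed here comes from an anchor-away strain, in which a protein fused to FRB is pulled out of the nucleus by rapamycin. Arp5-FRB cells gave 4 ChIP-seq libraries with an antibody to Arp5, of which 2 were without and 2 with rapamycin (8 µg/ml, 1 h), and Orc5-FRB cells gave 1 library without and 1 with rapamycin. Orc5 is a subunit of the origin recognition complex, which marks replication origins. According to the labels, ChIP cells also had nocodazole and an arrest in G1 with alpha factor (5 µg/ml), and the protocol names Orc2 as the depleted protein for all of them, so the protein is named here by genotype. Break-seq, which maps broken DNA ends, was run on 16 libraries after 3 h of rapamycin. These were WT-FRB, INO80-FRB, Mot1-FRB and INO80-FRB Mot1-FRB cells, each without and with 100 mM hydroxyurea (HU) and with 2 libraries per group. Nothing in the labels says that the libraries of a group came from separate cultures. No list measures how much Arp5, Orc5 or INO80 left the nucleus.

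The Arp5 lists held 5290 and 5443 peaks without rapamycin and 5809 and 6302 with it. Peaks were present in all 4 lists on 11 nuclear chromosomes, with 3741 genes, and all 9 genes lay on 6 of these. Over each whole list, 3335152 and 3237704 ChIP reads lay under peaks without rapamycin and 2869236 and 3389525 with it. The second list with rapamycin had peaks on 13 nuclear chromosomes and the others on 11. On the 11 shared chromosomes the lists held 5277 and 5420 peaks without rapamycin and 5793 and 5201 with it. With 2 libraries against 2, an exact two-sided permutation test cannot go below p = 0.333, so the comparisons are given as values, beside the share of all genes that showed the same pattern.

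All 9 genes had an Arp5 peak in the reading frame or the 500 bp upstream in each of the 4 lists, with and without rapamycin. This set none of them apart, since 95.7% of the 3741 genes had one. None of the 9 had a peak in both lists of one condition and in neither of the other. The gene start lay under a peak in all 4 lists at 7 of the 9 genes, all but PHO5 and INO1, against 49.7% of all genes. Over all genes, 0.134% had peaks only in both lists without rapamycin and 0.561% only in both lists with it.

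The positions of the peaks differed from gene to gene, as the map of peaks around the gene starts shows. PHO5 (YBR093C, II:429548-430951, reverse strand, a single reading frame) encodes the main acid phosphatase secreted under phosphate starvation. In the first library without rapamycin, 1 peak ran from -903 to 1359 bp of the gene start, and in the first with rapamycin 1 peak ran from -913 to 1389 bp. Both covered the whole 500 bp upstream. In the second library without rapamycin the same stretch held peaks from -2179 to -118 bp and from 121 to 1367 bp, with the start itself between them. In the second with rapamycin a peak from -2282 to 44 bp covered the promoter and only 23.9% of the reading frame lay under peaks, against 88.8% to 99.0% in the other libraries.

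PHO3 (YBR092C, II:427698-429101, reverse strand), an acid phosphatase gene downstream of PHO5 in tandem, showed the opposite layout. Its start lay under a peak in all 4 lists, but a stretch of 279 bp from -460 to -182 bp was outside the peaks of every list. Of its 500 bp upstream, 26.2% and 9.8% lay under peaks without rapamycin and 14.6% and 36.2% with it. PHO5 ends 446 bp upstream of PHO3, so the PHO5 peak reached into the PHO3 window in 3 of the lists and gave the highest PHO3 ratio in 2 of them.

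PHO84 (YML123C, XIII:24037-25800, reverse strand), the high-affinity phosphate transporter of the plasma membrane, had peaks that began close to its start. They reached -87 and -86 bp without rapamycin and -47 and -225 bp with it. Farther upstream each list had another peak, from -662 to -533 bp and -663 to -550 bp without rapamycin. With rapamycin it ran from -648 to -470 bp and -671 to -492 bp. The stretch from -469 to -226 bp, 244 bp long, was under no Arp5 peak in any list. PHO89 (YBR296C, II:796798-798522, reverse strand), a sodium-coupled phosphate transporter, looked alike near its start in 3 lists, where peaks reached -75, -128 and -67 bp. In the second library with rapamycin its peak reached -452 bp, and 90.4% of the 500 bp upstream was covered against 13.4% to 25.6% in the others.

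INO1 (YJL153C, X:134332-135933, reverse strand) encodes inositol-3-phosphate synthase, the enzyme that makes inositol. In the first library without rapamycin it lay under 1 peak, from -1233 to 1677 bp. In the other 3 lists the upstream region was split, with a second peak ending at -423 bp in each of them, and the stretch from -422 to -216 bp, 207 bp long, was uncovered in those 3. The gene start was under a peak in all lists but the first with rapamycin, where the peak began at 41 bp.

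OPI3 (YJR073C, X:572315-572935, reverse strand) encodes the methyltransferase of the later steps of phosphatidylcholine synthesis. Its 500 bp upstream was wholly covered in all 4 lists. In 3 lists a single peak ran from about 2.1 kb upstream to past the gene, with edges of -2147, -2148 and -2146 bp upstream, and also covered HOC1, MOG1 and NPA3. MOG1 is divergent from OPI3 with a gap of 159 bp, so a peak this wide cannot be given to one gene. CHO2 (YGR157W, VII:802440-805049, forward strand), whose product catalyses the first methylation of that pathway, was nearly free of peaks in its reading frame, with 2.84% to 7.82% of it covered. A short peak sat over its start, from -186 to 152 bp and -151 to 109 bp without rapamycin and from -5 to 152 bp in the first library with rapamycin. In the second with rapamycin the start lay under a wider peak of 1215 bp, from -1151 to 63 bp.

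PHO11 (YAR071W, I:225460-226863, forward strand) and PHO12 (YHR215W, VIII:552099-553502, forward strand) encode acid phosphatases near chromosome ends and are near-identical copies of each other. The sources used here do not say how reads that match both places were treated, so their values are uncertain. PHO11 lay under 1 peak of 9273 to 15458 bp in each list, which also covered YAR064W, YAR066W and YAR068W and stopped inside the reading frame, between 1377 and 1385 bp. PHO12 lay under 1 peak of 6645 bp and 5542 bp in the first libraries without and with rapamycin, and of 13149 and 12810 bp in the second ones. Such peaks are wider than the gene, and 92.0% to 96.4% of chromosome I and 75.6% to 87.1% of chromosome VIII lay under peaks, so a peak there is not specific to either gene.

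**Figure D1:**
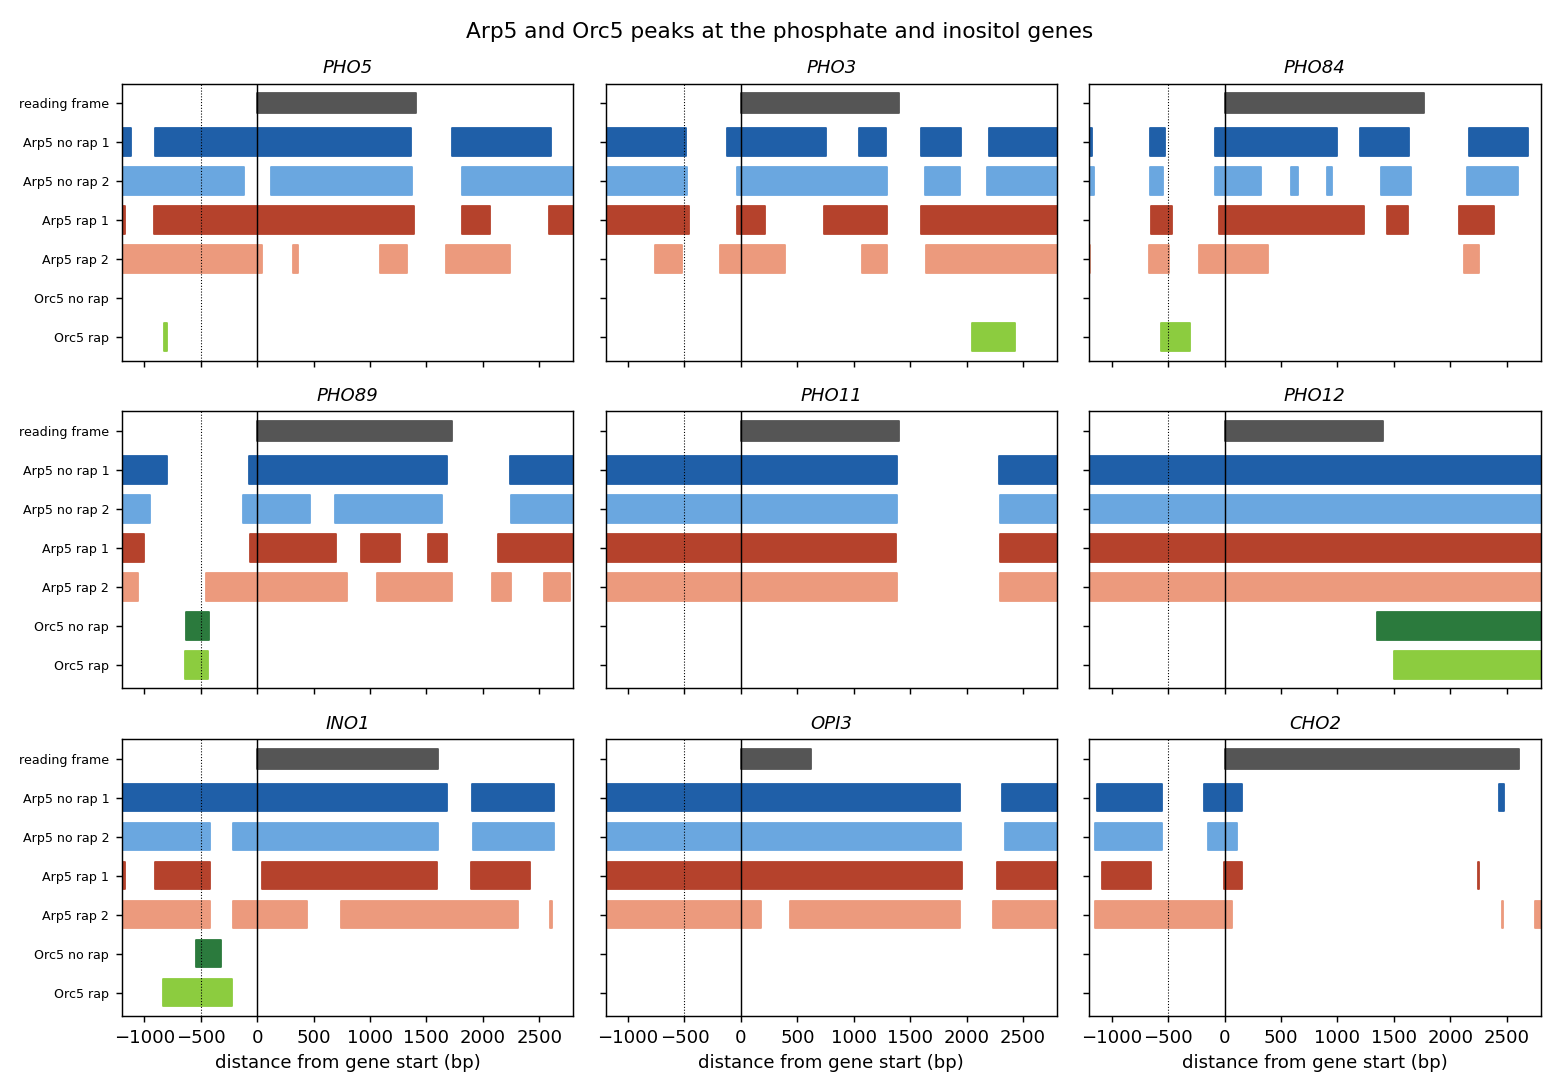
Peaks at each of the 9 genes, drawn by distance from the gene start in bp (horizontal axis), with 1 row for each of the 4 Arp5 and 2 Orc5 lists; the grey bar is the reading frame and the dotted line marks 500 bp upstream. PHO84 had no Arp5 peak from -469 to -226 bp in any list, whereas PHO11 and PHO12 lay under peaks wider than the gene. Over all genes, 43.7% to 60.1% of the bases from -300 to -201 bp lay under Arp5 peaks.

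Coverage summed up these layouts. Without rapamycin, the share of the 500 bp upstream under peaks was 88.3% ± 16.5 (SD, n = 2) at PHO5, 79.3% ± 29.3 at INO1, 33.7% ± 4.95 at CHO2, 20.3% ± 7.50 at PHO89, 18.0% ± 11.6 at PHO3 and 17.3% ± 0.141 at PHO84. It was 100% in every list at OPI3, PHO11 and PHO12, as at 18.9% of all genes. PHO84, PHO3 and PHO89 were the lowest and lay within each other's spread. Chromosomes differed in how much of them lay under peaks, 48.8% to 52.6% on II and 31.3% to 37.5% on XIII. Among genes of the same chromosome, upstream coverage without rapamycin stood at the percentiles 88.2 and 78.2 at PHO5 and 82.1 and 54.1 at INO1. It stood at 69.6 and 64.7 at CHO2 and 39.7 and 42.7 at PHO84. PHO3 had 28.4 and 16.1, and PHO89 18.4 and 30.0. With rapamycin the share was 100% at PHO5, 37.1% ± 30.4 at INO1, 50.5% ± 70.0 at CHO2, 51.9% ± 54.4 at PHO89, 25.4% ± 15.3 at PHO3 and 31.2% ± 22.1 at PHO84. The libraries of the 2 conditions overlapped at each of the 9 genes. Over all genes 7.4% were higher without rapamycin in both libraries and 25.6% lower.

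The second library with rapamycin stood apart in coverage at large. Its mean over all genes was 62.7% of the 500 bp upstream, against 49.8% to 53.0% in the other 3, while its mean over reading frames was 57.7% against 60.8% to 63.0%. CHO2 at 100%, PHO89 at 90.4% and PHO84 at 46.8% were its upstream values, and in the first library with rapamycin the same genes had 1%, 13.4% and 15.6%.

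Reading frames were covered to 60.2% ± 29.4 (SD, n = 2) at PHO84, 81.7% ± 14.7 at PHO3, 89.8% ± 10.8 at PHO89, 92.8% ± 5.69 at PHO5 and 99.9% ± 0.0883 at INO1 without rapamycin. With rapamycin they were covered to 51.2% ± 41.4, 49.2% ± 8.11, 77.2% ± 10.4, 61.4% ± 53.1 and 89.0% ± 11.0. PHO3, PHO11 and INO1 were higher in both libraries without rapamycin than in both with it, as were 22.6% of all genes, and none was lower, against 17.3% of all genes. At PHO11 that difference was 0.427 percentage points.

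**Figure D2:**
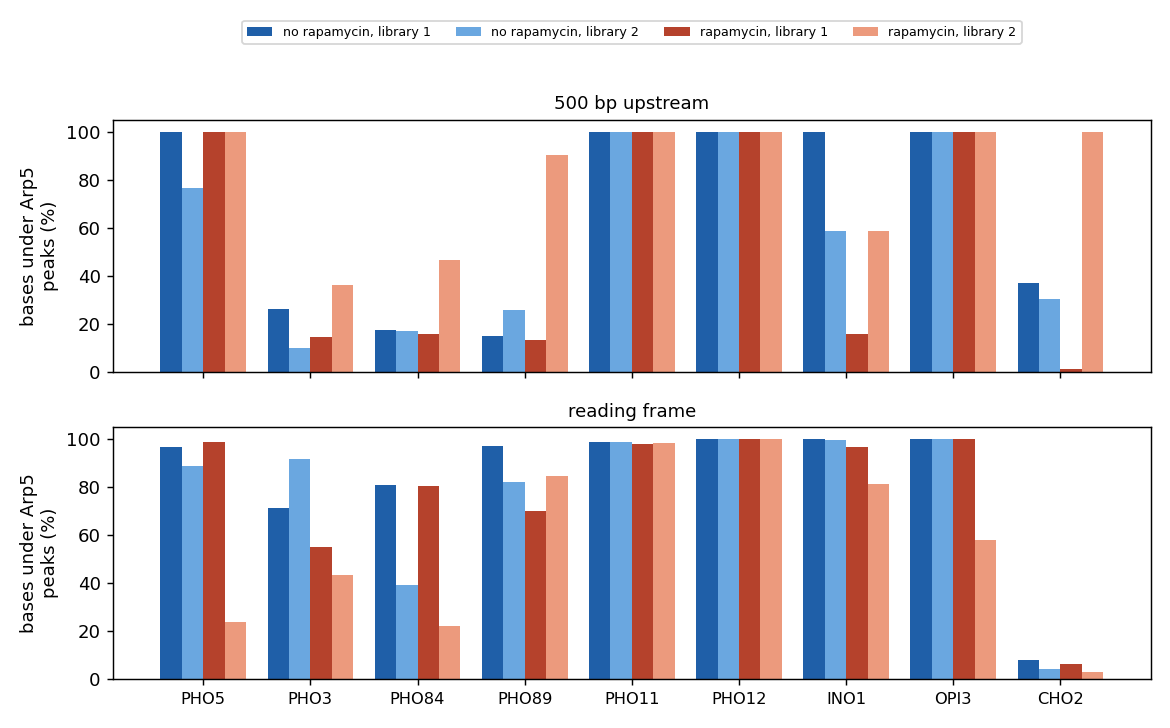
Percentage of bases under Arp5 peaks in the 500 bp upstream (top) and the reading frame (bottom) of each gene, with 1 bar for each of the 4 libraries. OPI3, PHO11 and PHO12 were covered to 100% upstream in every list, and CHO2 to no more than 7.82% in its reading frame.

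Each Arp5 peak carries its ChIP reads, its control reads and the ratio of both, which are the authors' values. The highest ratio of any peak in the window was 3.49 and 3.85 at PHO5 without rapamycin and 3.45 and 3.38 with it. At PHO3 it was 3.73 and 3.85, then 3.45 and 3.20 with rapamycin. At PHO84 it was 4.22 and 4.22, then 4.24 and 3.56. These 3 genes stayed within a narrow range, and PHO84 overlapped between conditions.

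PHO89 had ratios of 2.99 and 3.32 without rapamycin and 2.72 and 2.90 with it. INO1 had 20.6 and 24.5, then 21.1 and 11.5, and OPI3 had 21.8 and 25.7, then 21.3 and 11.6. At INO1 and OPI3 the second library with rapamycin was the low one, and the first was close to those without rapamycin. CHO2 had 11.5 and 10.4, then 8.01 and 10.8. PHO11 had 36.8 and 32.7, then 28.2 and 35.4. PHO12 had 11.9 and 29.5, then 11.8 and 26.4, so that libraries with the same number were alike and the conditions were not separated.

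In order of the mean without rapamycin, the ratios were 34.8 ± 2.92 (SD, n = 2) at PHO11, 23.8 ± 2.74 at OPI3, 22.5 ± 2.73 at INO1, 20.7 ± 12.4 at PHO12, 11.0 ± 0.820 at CHO2, 4.22 ± 0.00424 at PHO84, 3.79 ± 0.0827 at PHO3, 3.67 ± 0.252 at PHO5 and 3.16 ± 0.231 at PHO89. OPI3, INO1 and PHO12 did not differ beyond their spread, nor did PHO3 and PHO5. Apart from PHO11 and PHO12, this order was that of the chromosome medians, with X above VII, VII above XIII and XIII above II. PHO11, on chromosome I, and PHO12, on chromosome VIII, stood above the order of their chromosomes. ChIP reads per bp of peak were 0.508 and 0.529 at PHO11, then 0.522 and 0.481 with rapamycin. On chromosome I they were 0.603 and 0.585, then 0.509 and 0.511. PHO12 had 0.669 and 0.809, then 0.602 and 0.626, against 0.685 and 0.677, then 0.625 and 0.606 on chromosome VIII. The PHO11 peak of 15458 bp held 214 control reads, whereas peaks of chromosome I held 0.297 per bp in that list. The ratios of PHO11 and PHO12 can therefore not be read as more binding. In the first library without rapamycin the peaks of chromosome X had a median ratio of 19.3 with quartiles of 18.1 and 20.7, and those of chromosome II a median of 3.14 with quartiles of 2.93 and 3.40. ChIP reads per bp of peak were alike on both, 0.726 to 0.817 on X and 0.761 to 0.907 on II over the 4 lists, whereas control reads per bp were 0.0330 to 0.0604 on X and 0.265 to 0.273 on II. The ratios of the inositol and phosphate genes on different chromosomes can therefore not be compared as binding, and the part of the control's scaling in this was not tested.

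**Figure D3:**
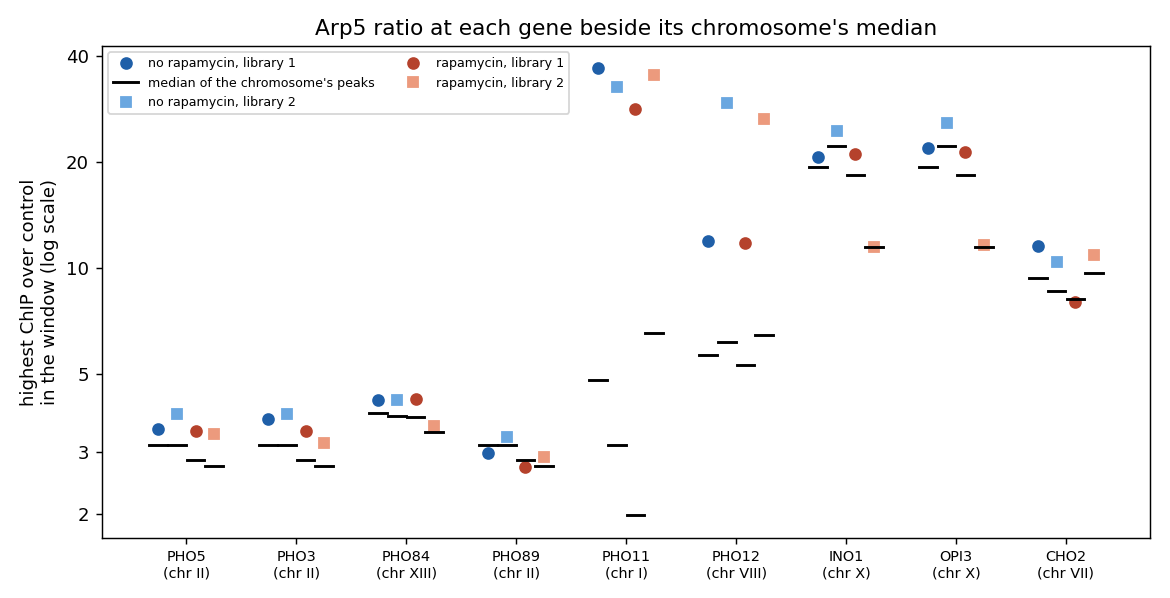
Highest Arp5 ChIP over control in the window of each gene (points, log scale) in the 4 libraries, with a black bar at the median ratio of the peaks of the same chromosome and library. Except at PHO11 and PHO12, the points lay near the bar of their chromosome, at 3.14 for chromosome II and 19.3 for chromosome X in the first library without rapamycin.

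Divided by the median of its chromosome and list, the ratio was 1.07 and 1.10 at INO1 without rapamycin and 1.15 and 1.00 with it. OPI3 had 1.13 and 1.16, then 1.17 and 1.02. Between the first and the second library with rapamycin the median of chromosome X went from 18.3 to 11.4, and both genes also went down within the chromosome, INO1 from the percentile 83.5 to 36.1 and OPI3 from 87.0 to 42.4. Without rapamycin, INO1 stood at the percentiles 52.9 and 64.6 and OPI3 at 75.1 and 79.3. PHO5 had 1.11 and 1.23, then 1.21 and 1.23, and PHO3 1.19 and 1.23, then 1.21 and 1.17. On chromosome II, PHO5 stood at the percentiles 66.9, 89.8, 89.0 and 93.4 of genes, in the order of both libraries without and both with rapamycin.

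PHO84 was at 1.09 and 1.11 of its chromosome, then 1.12 and 1.04. PHO89 had the lowest mean on this scale in both conditions, at 0.953 and 1.06, then 0.953 and 1.06. It stood at the percentiles 12.0 and 52.4, then 13.5 and 60.4 of chromosome II, so its libraries differed widely. In the second library with rapamycin INO1 (1.00), OPI3 (1.02) and PHO84 (1.04) were lower than PHO89. CHO2 was at 1.23 and 1.21 without rapamycin and at 0.980 and 1.12 with it, or the percentiles 91.1 and 90.1, then 31.6 and 75.1 of chromosome VII. PHO12 was at 2.10 and 4.78, then 2.23 and 4.10, and PHO11 at 7.67 and 10.4, then 14.2 and 5.41. On chromosome I only 13 to 42 peaks gave the median, and those of PHO11 were among the highest there, at percentiles of 95.7 to 97.9.

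**Figure D4:**
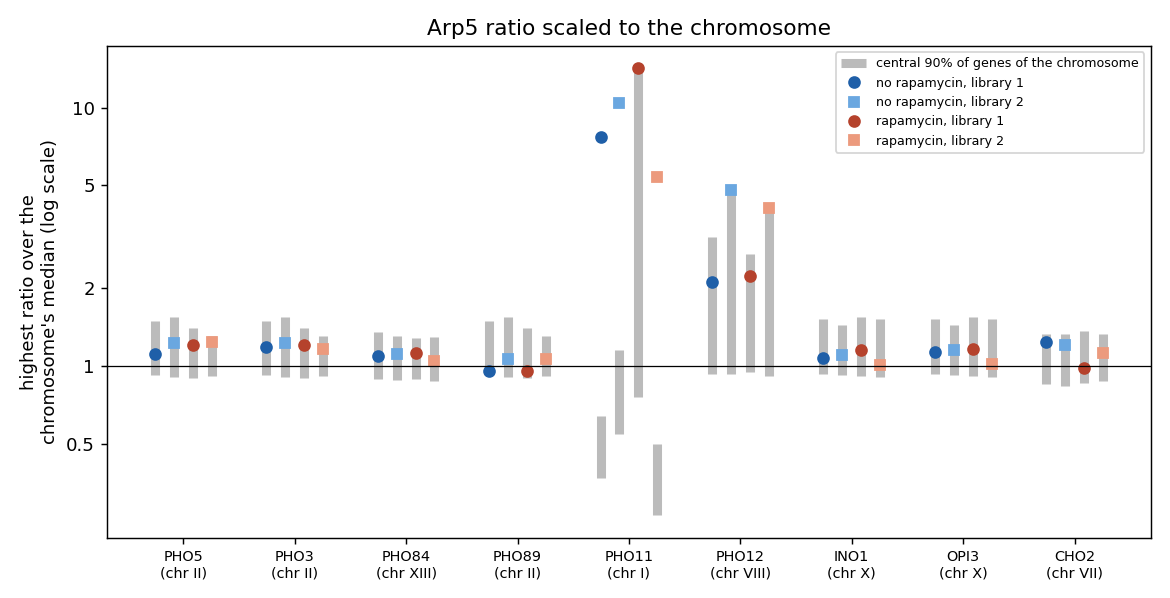
Highest Arp5 ratio of each gene divided by the median ratio of its chromosome's peaks (points, log scale) in the 4 libraries; grey bars span the central 90% of the genes of the same chromosome and library. PHO5, PHO3, PHO84, PHO89, INO1, OPI3 and CHO2 lay inside the grey bars, between 0.953 and 1.23, and PHO11 above the bar in 3 of 4 libraries.

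Between conditions, the plain ratio of PHO5, PHO3, PHO89 and OPI3 was higher in both libraries without rapamycin than in both with it. That is 4 of 9 genes, against 37.4% of the 3579 genes with a peak in all 4 lists. None of the 9 was lower in both, against 6.12% of genes. PHO5 and PHO3 are not separate counts in full. The same peak gave both values in the second library without rapamycin (3.85) and in the first with it (3.45). The log2 difference, no rapamycin over rapamycin, was 0.10 at PHO5, 0.19 at PHO3, 0.17 at PHO89 and 0.53 at OPI3, and its sign changed at PHO5 and PHO89 after scaling to the chromosome (-0.062 and -0.00063). Without the second library with rapamycin, the low one, OPI3 fell to 0.16 and INO1 from 0.47 to 0.10, and without the first they were 1.03 and 0.97. At PHO5 it was 0.03 without the second library without rapamycin and 0.17 without the first, and at PHO89 0.09 without the second library without rapamycin. The median over the 9 genes was 0.17, and over all genes 0.08. After scaling to the chromosome, CHO2 alone was higher without rapamycin, with a log2 difference of 0.22, against 20.3% of all genes, and none was lower, against 19.0%. That value was 0.13 without the first library with rapamycin and 0.32 without the second. Higher genes made up 85.9% of all non-overlapping genes on the plain scale and 51.7% after scaling to the chromosome, and the median over the 9 genes became 0.02 on the log2 scale. The counts of the phosphate and inositol genes were thus near those of genes at large on both scales.

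The reads without the control gave other orders. ChIP reads per bp of peak depend on the called width, whose list median was 265.5 and 273 bp without rapamycin and 320 and 316 bp with it. Short peaks gave high values, as with 141 reads on 7 bp at CHO2 in the first library with rapamycin. At PHO84 the second library without rapamycin had 158 reads on 39 bp and 184 reads on 61 bp. The part of peak width in this measure was not tested. ChIP reads per bp of peak were higher without rapamycin in both libraries at PHO5, PHO84, PHO12 and OPI3, as at 60.9% of genes, and lower at none, against 3.3% of genes. At PHO5 they were 0.763 and 0.744, then 0.706 and 0.720, and at OPI3 0.736 and 0.725, then 0.659 and 0.633. The highest pileup, given as a score, went the other way at PHO5, at 377 and 365 without rapamycin and 456 and 392 with it, as at 36.6% of genes. It was higher without rapamycin at PHO89 only, at 245 and 220, then 212 and 206, as at 12.3% of genes. The highest pileup in the PHO5 window stood at percentiles of 91.0 to 93.5 of genes in each list. In the second libraries it belonged to the peaks from -2179 to -118 bp and from -2282 to 44 bp, which lay mostly upstream of the window. The other peaks of the window had pileup scores of 286 in the second library without rapamycin and 208 and 156 in the second with it. PBY1 is divergent from PHO5 with a gap of 1084 bp, so these pileups cannot be given to PHO5 alone. At PHO12 the pileup score was 312 and 2307, then 309 and 2091, and the high values belong to the wide peaks that reached more than 10 kb past the gene start, to 10668 and 10613 bp.

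The genes nearest to INO1 in the 4 percentiles of the plain ratio were OPT1, PEX2 and CBP1, at a Euclidean distance of 1.19 percentile points, and all 3 lie on chromosome X and share their values. Those nearest to PHO84 were YTA12, YHM2 and ERG6 (1.56 to 1.78 points), all on chromosome XIII. Those nearest to PHO5 were SPO20, COX14 and DLT1 (3.61 to 4.20 points), all on chromosome XIII. With percentiles within the chromosome they were DNL4, SPE2 and GUS1 for INO1 (7.11 to 7.72 points), RRM3, ERC1 and QDR3 for PHO84 (5.25 to 5.79 points) and FLO9, MSN4 and ETT1 for PHO5 (5.40 to 6.78 points), so none of the neighbours was the same on both scales.

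Of 21 other phosphate genes, 11 lay on the chromosomes used and 10 of these had a peak in all 4 Arp5 lists. On the plain scale 2 of the 10 were higher and 1 lower without rapamycin, against 37.4% and 6.12% of all genes, and after scaling 0 were higher and 4 lower, against 20.3% and 19.0%. With so few genes these shares were not tested. VTC4, which encodes a polyphosphate polymerase, had ratios over the chromosome's median of 1.05 and 1.08, then 1.04 and 1.11. PHO81, the inhibitor of the Pho80-Pho85 kinase, had 1.10 and 1.21, then 1.11 and 1.18, PHO86, which helps Pho84 leave the endoplasmic reticulum, had 1.01 and 1.04, then 1.09 and 0.981, and PHO90, a low-affinity phosphate transporter, had 0.987 and 0.976, then 1.05 and 1.01. These ratios lay between 0.976 and 1.21, and within the chromosome PHO81 stood at the percentiles 69.2 and 90.9, then 71.3 and 85.9, whereas PHO90 stood at 19.8 and 17.6, then 44.4 and 38.6.

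Of 19 other inositol and phospholipid genes, 11 were on the chromosomes used and 10 had a peak in all lists, of which 3 were higher and 2 lower without rapamycin on the plain scale, against 37.4% and 6.12% of all genes, and 2 and 4 after scaling, against 20.3% and 19.0%. OPI1, the repressor, had 1.01 and 1.05 of the chromosome's median, then 1.04 and 0.984. PSD2, a phosphatidylserine decarboxylase, had 0.839 and 0.819, then 1.10 and 0.979, INM1, an inositol monophosphatase, had 0.979 and 1.01, then 1.06 and 1.04, and EPT1, an ethanolamine phosphotransferase, had 1.03 and 0.948, then 1.05 and 1.03. Of the 15 genes of INO80 complex subunits, 8 were on the chromosomes used and all 8 had a peak in all lists, with 4 higher and 0 lower on the plain scale, against 37.4% and 6.12% of all genes, and 2 and 1 after scaling, against 20.3% and 19.0%. INO80 itself, the ATPase of the complex, had 1.10 and 1.11, then 1.17 and 1.15. Its actin-related subunits ARP4 and ARP8 had 1.04 and 1.11, then 1.05 and 0.926, and 1.14 and 1.03, then 0.997 and 1.02. IES4, another subunit, had 0.978 and 0.811, then 0.822 and 0.910. Median log2 differences after scaling were -0.03, 0.00319 and 0.05 for the 3 lists, against 0.00394 over all genes.

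Orc5 peaks lay near some of the same genes. Without rapamycin, 3 of the 9 genes had an Orc5 peak within 1 kb of the window, namely PHO89, PHO12 and INO1, against 38.9% of all genes. With rapamycin there were 6, the same 3 with PHO5, PHO3 and PHO84 added, against 50.7%. The list with rapamycin was longer, with 1968 peaks against 1415. The 3 genes near a peak in both lists compare with 33.1% of all genes, the 3 near one with rapamycin only with 17.6%, and none was near one without rapamycin only, against 5.73%. With 1 library per condition there is no replicate check on these positions.

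At INO1 the Orc5 peak lay in the promoter, from -545 to -318 bp without and from -833 to -221 bp with rapamycin (X:136251-136478 and X:136154-136766). It fell partly in the stretch between -422 and -216 bp that 3 Arp5 lists left uncovered. At PHO89 it lay from -630 to -425 bp and from -639 to -433 bp, upstream of the Arp5 peaks of 3 lists and overlapping the edge of the fourth, at -452 bp. At PHO84 a peak from -560 to -306 bp (XIII:26106-26360) was listed with rapamycin only, in part over the stretch without Arp5 peaks, and the nearest peak without rapamycin was 3.73 kb from the window. At PHO12 a wide peak began near the end of the gene, at 1353 and 1498 bp, and extended past it. The PHO5 peak with rapamycin was 27 bp wide and lay from -830 to -804 bp, and without rapamycin the nearest was 9.69 kb from the window. At PHO3 it lay downstream of the gene, from 2044 to 2431 bp, with rapamycin only. The nearest Orc5 peak was 5.42 kb from the OPI3 window without and 5.41 kb with rapamycin, 7.45 kb and 4.67 kb from that of CHO2, and 2.07 kb and 34.4 kb from that of PHO11.

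No break peak touched the reading frame or the 500 bp upstream of any of the 9 genes in any of the 16 Break-seq lists, against 8.06% of all genes with one in at least 1 list. Within 1 kb, 2 of the 9 had a break peak in 1 list each, against 14.2% of all genes. PHO84 had one in the first WT-FRB library without HU, the longest of the lists with 510 peaks, from 1928 to 2085 bp of the gene start, which is 0.165 kb past the end of the gene (XIII:23715-23872, fold over background 1.72, with 25.9% of that list lower). PHO11 had one in the second WT-FRB library without HU, from -1391 to -1217 bp (I:224069-224243, fold 2.10, with 60.9% of that list lower). Each was absent from the other WT-FRB library, and no list with INO80 or Mot1 depleted or with HU had a break peak within 1 kb of the 9 genes. The share of all genes with a break peak within 1 kb was 8.76% and 3.95% in those WT-FRB libraries and 5.71% and 3.9% in WT-FRB cells with HU. In INO80-FRB cells it was 3.43% and 2.83% without HU and 3.63% and 4.32% with it. In Mot1-FRB cells it was 0.783% and 0.283%, then 0.483% and 0.0666% with HU, and in INO80-FRB Mot1-FRB cells 3.38% and 3.95%, then 2.88% and 2.35% with HU.

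CHO2 had a break peak 1.08 kb from its window in the first WT-FRB library without HU, and its median distance was 10.1 kb. Break peaks were farther away at INO1, OPI3, PHO5, PHO3 and PHO89. Over the 12 lists other than those of the Mot1-FRB strain, which hold 5 to 40 peaks each, the distance from the window to the nearest break peak had a median of 96.9 kb at INO1, 88.6 kb at OPI3, 164 kb at PHO5, 162 kb at PHO3 and 532 kb at PHO89, and its lowest value was 20.9, 16.4, 9.54, 7.69 and 12.3 kb. At PHO84 and PHO11 the median was 19.5 and 18.4 kb. PHO12 had the shortest median distance, 2.98 kb (1.55 to 6.71 kb), and a break peak within 5 kb in 12 of the 16 lists. Most of these peaks lay upstream of PHO12. In the first WT-FRB and the first Mot1-FRB library, both without HU, the nearest lay past the gene, from 2956 to 3119 bp and from 4846 to 5107 bp. PHO12 lies 8.55 kb from the end of the last annotated gene of chromosome VIII, and whether this has a part was not tested. What lies under these break peaks was not examined. Between strains with and without INO80 depletion nothing can be compared at the 9 genes themselves, because none of these lists has a peak there other than the 2 in WT-FRB cells.

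Among the other genes of the pathways, break peaks lay within 1 kb in at least 1 list at 5 of 21 phosphate genes (PHO4, PHO80, PHO86, PHO87 and VIP1), 4 of 19 inositol and phospholipid genes (INO4, ITR2, PSD2 and FAS1) and 2 of 15 INO80 complex genes (INO80 and IES6). PHO4 and INO4 encode activators of the genes described here. The background over all genes was 14.2%, and the difference from it was not tested.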

How the data were processed

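Every library has a deposited peak list of its own, made without pooling. Per the submitters' processing notes reads were aligned with Bowtie2 to sacCer3, with no versions, and no source used here names the peak callers. Reads were 50 bp for ChIP-seq and 75 bp for Break-seq, per the labels. For Arp5, the authors' lists give the ChIP read count under a peak, the control reads as a scaled score, the ratio of both, a q-value and the height of the pileup as a score, per the file headers. The q-value deposited was 0 for 97.2% to 99.2% of peaks, so ties were ranked by the log p score. Each deposited Break-seq peak has a score, a fold ratio over background and −log10 of p and q. The deposited Orc5 lists hold positions only. The 8 NET-seq libraries of the 30 samples were not used here. Read totals are unknown.

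Gene positions came from RefSeq (R64, the same assembly as sacCer3), the strand from systematic names, and the gene start is that of the reading frame. A peak counted with an overlap of at least 1 bp, and starts were converted to count from 1. Python 3.11.15 with pandas 2.3.3 and numpy 2.4.6 was used, and overlaps and calls were checked on planted peaks. No test was run. A gene was called different where both values of one condition exceeded both of the other. The genes and lists were chosen with earlier results of these data known. All 9 genes were named, up to 4 per other list (by number of Arp5 lists with a peak, then by percentile without rapamycin), 3 nearest genes for each of INO1, PHO5 and PHO84, genes that share a peak, and genes behind counts of 5 or fewer. Percentiles within the chromosome were added after the values were seen. A search for sequence motifs was planned and not run, since no sequence was used here.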

Additional observations from a re-analysis of the deposited data

How the results depend on the processing

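No paired analysis was possible because the results come from no test. Here a paired analysis means a fit with the replicate number as a term. Differences between libraries of the same number need no fit, but they were not worked out. Nothing in the labels says that a number pairs libraries, so whether pairing would change the calls was not tested. All 9 genes had an Arp5 peak in every list used under each alternative except where the peak's midpoint had to lie in the window, which left 6. The count of 4 genes with a higher plain Arp5 ratio without rapamycin became 1 with values divided by the library's median (PHO3), 1 with the chromosome's median (CHO2) and 1 by peak height (PHO89), where 1 was lower (PHO5). Leaving out 1 library gave 6 to 7 higher and 0 to 1 lower, and the 7 and 1 came without the second library with rapamycin. Over all genes the share higher rose likewise, to 47.6% to 63.2%, and the share lower to 12.0% to 28.0%. Over all genes, 1339 were higher on the plain scale, 652, 728 and 441 with those 3 settings and 2179 by reads per bp. Among the 4 genes called higher on the plain scale, the log2 difference changed sign at PHO5 (-0.062) and PHO89 (-0.00063) when scaled to the chromosome, at PHO3 (-0.016) and PHO89 (-0.0026) by reads per bp, and at PHO5 (-0.19), PHO3 (-0.13) and OPI3 (-0.043) by height. Among the other 5, whose groups overlapped, it was negative at PHO11 (-0.12) when scaled to the chromosome, at PHO12 (-0.010) when divided by the library's median, at CHO2 (-0.059) by reads per bp, and at PHO84 (-0.15), PHO11 (-0.14), INO1 (-0.12) and CHO2 (-0.20) by height. Without 1 library it was negative at PHO12 (-0.68 and -0.35), PHO11 (-0.024) and PHO84 (-0.0058). The cause was not tested. The chromosome scaling, reads per bp and height were chosen after seeing the data. Genes near Orc5 without rapamycin were 5 at a distance of 5 kb and 1 with peaks of at least 1 kb, and 1 with rapamycin with such peaks. Genes near a break were 1 at 500 bp, 4 at 5 kb and 0 with the better-scoring part of each list, and 1 to 2 without 1 library, with 1 left without either WT-FRB library without HU.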
